A study of Mus musculus with 9 samples.

Results

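The comparison described here set FDCPmix cells that carried a short hairpin RNA (shRNA) against Pu.1 beside FDCPmix cells that carried the empty vector, and it was taken from the sample titles as the 3 arrays of each kind, 6 of the 9 arrays of the series. These cells form a multipotent blood progenitor line of the mouse, which renews itself in IL-3 and can be driven into several lineages. Both groups were kept in self-renewal conditions, transduced with lentivirus (the Lentilox 3.7 backbone with the Pu.1 shRNA, or empty virus) and sorted for viable GFP+ cells 5 days later. Total RNA (150 ng) was labeled with Cy3 and hybridized to single-color Agilent 4x44K whole mouse genome arrays. The group with the shRNA is called Pu.1 KD and the control EV, and the other 3 arrays of the series, Gata2 KD, carried an shRNA against Gata2. All cells come from 1 line and had all been infected and sorted, and the labels do not say how many shRNA sequences were used. Per the methods the triplicates were each transduced, without a statement that they had been grown as separate cultures before that, so the p-values measure the spread between these arrays, which may be partly technical.

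PU.1, encoded by Spi1, is a transcription factor of the ETS family that binds purine-rich DNA and is required for the formation of macrophages, neutrophils and B cells. Known PU.1 targets include receptors for myeloid growth factors, Fc receptors, granule proteins and integrins. In progenitors it acts in opposition to GATA1, and its level is thought to help set the balance between the granulocyte-macrophage fates and the erythroid, megakaryocyte and mast cell fates.

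Between 80.4% and 89.6% of the spots on an array were well above background and none was saturated. Each of the 3 slides held 1 array of each group, and slide was a term of the fit. Of the variance along the first principal component of the probes, 77.5% lay between slides. EV replicate 3 had the lowest mean correlation with the other arrays (Pearson, over probes), 0.96 against at least 0.971. The 8 markers listed for the progenitor line (Kit, Cd34, Gata2, Myb, Runx1, Tal1, Lmo2 and Ptprc) were well above background on every array of both groups. Levels are log2 signal from which the 75th percentile of that array was subtracted, and a change is the difference of 2 such levels.

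Spi1 was examined first, because it shows whether the shRNA acted. The EV arrays read -1.69, -1.89 and -2.09, and the Pu.1 KD arrays read -3.65, -3.67 and -3.55. Every Pu.1 KD array was below every EV array. The change was -1.74 with an SE of 0.12, or 3.33-fold lower, at a limma adjusted p of 0.00346. The message was still well above background on all 3 Pu.1 KD arrays. Gata2 changed by -0.16 (adjusted p 0.566) and Gata1 by 0.41 (adjusted p 0.271), and neither passed the test. Of 18 other ETS factors listed, 0 were called in either direction, with a median change of -0.08, and 1 was called each way after normexp background correction. Fli1, an ETS factor of megakaryocytes, changed by -0.01 (adjusted p 0.985).

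With PU.1 lowered, many genes of the neutrophil granules, the Fc receptors and their signaling partners, eosinophils and antigen presentation fell, and smaller sets of megakaryocyte and erythroid genes rose, while mast cell genes went both ways. Of 36585 probes tested, 999 were called lower (2.73%) and 842 higher (2.3%) in Pu.1 KD at an adjusted p under 0.05. On the 15808 named genes, each represented by its brightest probe, 608 were called lower, which is 3.85% of those tested, and 409 higher, which is 2.59%. These percentages are the background against which the gene groups below are read. Among called genes, 199 were lower by at least 2-fold and 35 by at least 4-fold, against 122 and 8 higher, although the 2 largest changes were rises. The median change over all genes was -0.05, with quartiles of -0.24 and 0.12. In RNA from sorted populations, fewer cells of one kind and less message per cell cannot be told apart, and this holds for every result below.

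The number of calls depended strongly on which arrays entered and on how the spread was estimated. A fit to the 6 arrays of EV and Pu.1 KD alone called 56 probes lower and 25 higher, and a fit without the slide called 514 and 448. Leaving out EV replicate 1 or 2 gave 345 and 239 or 216 and 140 (lower and higher). Leaving out Pu.1 KD replicate 1, 2 or 3 gave 178 and 172, 78 and 54 or 282 and 174. The Gata2 KD arrays enter through the shared estimate of the spread, and leaving out replicate 1, 2 or 3 of them gave 518 and 461, 552 and 477, and 632 and 550. The balance also turned, with more probes called higher than lower after quantile normalization (1008 lower and 1046 higher), after median scaling (1033 and 1122), in the deposited log2 values (1753 and 1867) and without EV replicate 3 (844 and 1124). The size of a change depended on the background correction as well. After normexp correction, 24 of the 142 named genes called besides Spi1 had a fold smaller by more than 1.5 times and 0 a larger one, and in the deposited log2 values 17 did. Those described here with their values after normexp are Ms4a6b (-1.92), Fcgr1 (-2.20), Calml4 (-1.51), Clca3a1 (2.83), Clca3a2 (2.55), Gem (1.46), Lratd1 (0.83), Col15a1 (1.21), Csf3r (-0.53), Il1r2 (-1.08), H2-Aa (-0.55), Ctsl (-0.44), Siglecf (-1.43) and Bcl2a1b (-0.76). The others, described as a bound or without a fold, are Pira2 (-0.26), Nlrc4 (-0.17), Cxcl10 (0.13) and Hs3st1 (0.43).

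**Figure D1:**
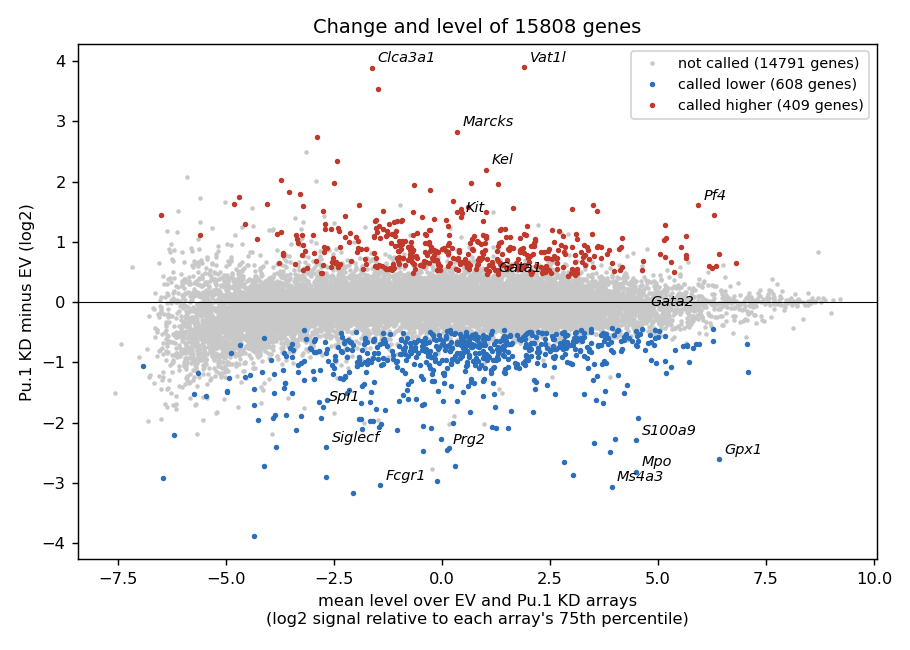
Change of each of the 15808 named genes (log2, Pu.1 KD minus EV, y axis) against its mean level over the 6 arrays (log2 signal relative to the 75th percentile of each array, x axis), 1 point for a gene. The 608 genes called lower are blue and the 409 called higher are red and the rest are gray, with Vat1l (3.90) and Clca3a1 (3.89) at the top.

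The 12 named genes that fell most, among those well above background on all 6 arrays, were of several kinds. They encode cell surface receptors and other membrane proteins, an adaptor, granule and defense proteins, a protease inhibitor, an antioxidant enzyme and a calmodulin-like protein. Ms4a6b, a member of the membrane-spanning Ms4a family, read -0.51, -0.50 and -0.44 in EV and -3.92, -3.69 and -3.34 in Pu.1 KD, a fall of 8.96-fold (change -3.16, SE 0.18, adjusted p 0.00213). Ms4a3, its relative from granulocyte and monocyte progenitors, read 5.48, 5.41 and 5.49 in EV and 2.21, 2.39 and 2.58 in Pu.1 KD (8.37-fold lower, change -3.07, SE 0.11, adjusted p 0.000858). That no array of one group overlaps with the other was a condition of this choice and not a result, and over all probes 9.42% lay apart in this way on the lower side and 7.76% on the higher. Of the 1017 called genes the groups overlapped in only 18, so that arrays lie apart adds little to a call, here and below. Of the 13 Ms4a genes tested, a family counted after these values were seen, 3 were called lower, the third being Ms4a6c (-0.77), and 0 higher. Fcgr1, the high-affinity receptor for IgG, read 0.01, -0.17 and 0.37 in EV and -2.97, -3.33 and -2.58 in Pu.1 KD (8.19-fold lower). Cfp, which encodes the complement factor properdin, read 4.19, 4.38 and 4.85 in EV and 1.56, 1.57 and 1.66 in Pu.1 KD (7.34-fold lower). Gpx1, a glutathione peroxidase, read 7.71, 7.61 and 7.82 in EV and 5.12, 5.24 and 4.95 in Pu.1 KD (6.09-fold lower, adjusted p 0.00108). The Pu.1 KD arrays of Cfp lay close together, while those of Fcgr1 were spread more widely. The other falls were of Lilra6 (-2.97), the calmodulin-like gene Calml4 (-2.90), Mpo (-2.81), Fcgr3 (-2.72), Pirb (-2.65), Tyrobp (-2.48) and Stfa2l1 (-2.46). All 12 falls passed the test under each of 20 alternative fits, in 3 of them with the smaller size after normexp given above.

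The 12 largest rises were a more mixed set. Vat1l, a gene named for its likeness to a vesicle transport protein, read -0.21, -0.06 and 0.14 in EV and 3.67, 4.05 and 3.82 in Pu.1 KD, a rise of 14.9-fold (change 3.90, SE 0.15, adjusted p 0.000858). Its 3 probes did not give the same size, and the median over them was 3.23. Clca3a1, a regulator of calcium-activated chloride channels, read -3.78, -3.33 and -3.61 in EV and 0.17, 0.46 and 0.32 in Pu.1 KD (14.8-fold higher). Its close relative Clca3a2 rose by 11.7-fold, and since the pair are near copies their probes may share signal. Of the 5 Clca genes tested, counted for the same reason, the other 3 were not called. Marcks, an actin-binding substrate of protein kinase C, read -1.24, -0.84 and -1.16 in EV and 1.56, 2.01 and 1.69 in Pu.1 KD (7.1-fold higher). Kel, the Kell blood group protein of the red cell membrane, read -0.23, 0.10 and -0.10 in EV and 2.10, 2.29 and 1.98 in Pu.1 KD (4.58-fold higher, SE 0.09), and the rise differed little between slides (2.19 to 2.21). For the rises, too, the groups were apart by the rule of choice. Gem, a small GTPase, rose by 2.34, Lratd1 by 2.02, the granzyme Gzmc by 1.98, the collagen Col15a1 by 1.98 (a median of 1.35 over its probes), the LIM-domain gene Crip2 by 1.96, the copine Cpne6 by 1.95 and Ahrr, the repressor of the aryl hydrocarbon receptor, by 1.86. Of the 12, 7 kept their call under each alternative fit. Without Pu.1 KD replicate 2 the adjusted p was 0.0608 for Gem, 0.0836 for Col15a1 and 0.0529 for Crip2. Without EV replicate 2 it was 0.0645 for Lratd1 and 0.0586 for Col15a1, without EV replicate 1 it was 0.0532 for Lratd1, and without Pu.1 KD replicate 3 it was 0.0552 for Lratd1 and 0.0639 for Col15a1. In the fit to the 6 arrays alone it was 0.0593 for Gem, 0.0552 for Lratd1, 0.0722 for Col15a1 and 0.0513 for Ahrr.

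**Figure D2:**
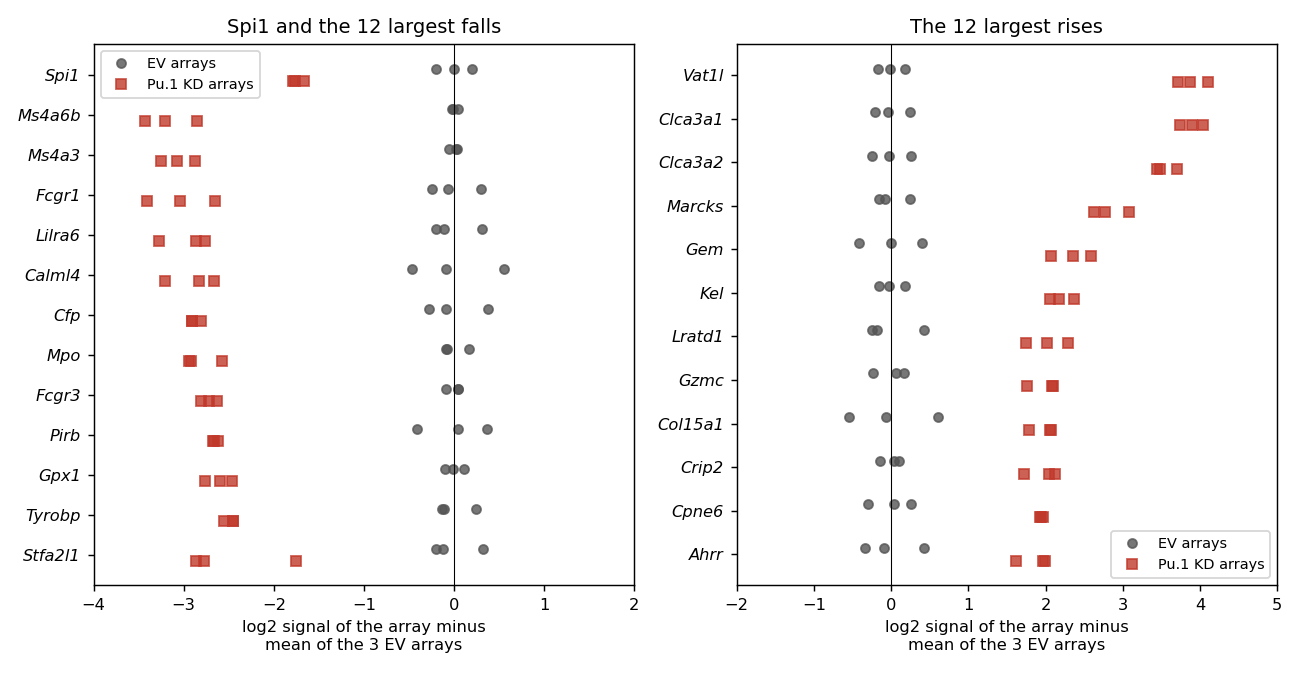
Level of Spi1, the 12 genes with the largest fall (left) and the 12 with the largest rise (right) on each of the 3 EV arrays (gray circles) and 3 Pu.1 KD arrays (red squares), as log2 signal minus the mean of the EV arrays for that gene (x axis). The genes other than Spi1 were chosen with the groups apart, and Stfa2l1 has 1 Pu.1 KD array above the other 2.

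The promoters of the first 4 of the falls and the first 2 of the rises are shown so that their sequence can be set beside the change of each gene. Each is a RefSeq window of 300 bases (GRCm38.p6) that covers the transcription start and lies mostly before it, read 5′ to 3′ on the strand of the gene. Capitals mark the 7 bases GGAAGTG, the ETS motif bound by PU.1, or its reverse complement CACTTCC.
Ms4a6b (chr19:11518309-11518608, plus strand): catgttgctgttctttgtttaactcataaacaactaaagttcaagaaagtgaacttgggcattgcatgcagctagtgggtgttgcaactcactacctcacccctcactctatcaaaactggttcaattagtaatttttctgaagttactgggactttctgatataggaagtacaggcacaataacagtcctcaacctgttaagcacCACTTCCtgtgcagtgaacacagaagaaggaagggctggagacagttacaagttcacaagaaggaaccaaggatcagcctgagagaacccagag
Ms4a3 (chr19:11640802-11641101, minus strand): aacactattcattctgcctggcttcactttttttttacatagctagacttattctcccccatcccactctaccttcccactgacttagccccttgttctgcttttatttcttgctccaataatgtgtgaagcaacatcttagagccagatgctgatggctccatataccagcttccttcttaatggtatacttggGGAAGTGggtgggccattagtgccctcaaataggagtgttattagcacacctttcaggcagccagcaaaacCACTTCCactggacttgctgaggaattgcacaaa
Fcgr1 (chr3:96293920-96294219, minus strand): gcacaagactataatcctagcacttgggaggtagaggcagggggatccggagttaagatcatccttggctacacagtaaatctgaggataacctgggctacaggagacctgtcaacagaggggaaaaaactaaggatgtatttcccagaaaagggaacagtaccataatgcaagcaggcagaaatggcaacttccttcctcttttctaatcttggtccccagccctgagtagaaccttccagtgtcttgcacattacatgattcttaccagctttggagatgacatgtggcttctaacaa
Lilra6 (chr7:3915452-3915751, minus strand): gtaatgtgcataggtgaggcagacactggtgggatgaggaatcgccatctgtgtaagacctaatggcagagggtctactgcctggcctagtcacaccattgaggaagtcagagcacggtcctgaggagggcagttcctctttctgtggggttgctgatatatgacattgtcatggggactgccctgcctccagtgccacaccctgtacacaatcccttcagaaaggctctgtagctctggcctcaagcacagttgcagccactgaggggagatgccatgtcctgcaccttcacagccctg
Vat1l (chr8:114205390-114205689, plus strand): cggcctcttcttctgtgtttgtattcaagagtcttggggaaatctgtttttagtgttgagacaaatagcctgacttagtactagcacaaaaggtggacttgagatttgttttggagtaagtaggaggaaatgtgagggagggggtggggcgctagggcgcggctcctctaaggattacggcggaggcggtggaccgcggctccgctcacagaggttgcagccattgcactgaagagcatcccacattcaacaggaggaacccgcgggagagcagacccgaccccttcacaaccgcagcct
Clca3a1 (chr3:144760928-144761227, minus strand): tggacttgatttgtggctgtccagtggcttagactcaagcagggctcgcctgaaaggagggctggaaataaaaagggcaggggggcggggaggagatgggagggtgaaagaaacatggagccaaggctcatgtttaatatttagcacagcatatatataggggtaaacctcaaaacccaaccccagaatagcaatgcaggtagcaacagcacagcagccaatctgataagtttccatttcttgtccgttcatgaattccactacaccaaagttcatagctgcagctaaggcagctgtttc
The Ms4a6b window held 1 match, which began at base -44 counted from the start, and the Ms4a3 window held 2, which began at -55 and 17. The windows of Fcgr1, Lilra6, Vat1l and Clca3a1 held none, and none of the 6 windows held the GATA motif AGATAAG on either strand. Among genes with a single window in the table, 63 of 412 called lower (15.3%), 23 of 244 called higher (9.43%) and 1325 of all 10302 tested (12.9%) held GGAAGTG on either strand. For AGATAAG the shares were 1.46% of those called lower, 3.28% of those called higher and 2.59% of all tested. These shares are descriptions of short windows in which distal sites cannot be seen, and a match is not evidence of binding.

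The transcription factors and signaling genes of myeloid cells came next in the order of roles. Of 27 myeloid transcription factors tested, 9 were called lower, Spi1 itself among them, and 1 higher, with a median change of -0.38. Klf4, a factor of monocyte formation, read -1.21, -1.08 and -0.46 in EV and -2.06, -2.76 and -1.90 in Pu.1 KD (2.5-fold lower, adjusted p 0.0286). The C/EBP family, which works with PU.1 on granulocyte genes, had 3 members called, Cebpd at -0.92, Cebpa at -0.81 and Cebpb at -0.74. Irf5, a factor of inflammatory macrophages, fell by 0.95, and Fos, a component of AP-1, fell by 1.56. Id2, an inhibitor of basic helix-loop-helix factors, was the member that rose (1.12, adjusted p 0.0127). Gfi1, a repressor needed by neutrophils, changed by -0.55 (adjusted p 0.0966) and Irf8, a factor of monocytes, by -0.42 (adjusted p 0.0568), so neither passed. Removing EV replicate 1 or 2 left 4 and 1 of the falls, removing Pu.1 KD replicate 1, 2 or 3 left 1, 1 and 2, and removing Gata2 KD replicate 1 or 3 left 5.

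Among receptors for cytokines and growth factors the calls went both ways, with 3 of 33 lower and 5 higher and a median of 0.15. Csf3r, the receptor for G-CSF, read -2.78, -2.81 and -3.26 in EV and -4.44, -4.27 and -4.41 in Pu.1 KD (2.69-fold lower, adjusted p 0.00425). Il1r2, the decoy receptor for IL-1, fell 3.78-fold, and Tgfbr2, a receptor for TGF-beta, fell 2.5-fold on its brightest probe, with a median of -0.86 over its probes. The groups were apart in each. Kit, the receptor for stem cell factor, read -0.43, -0.31 and -0.09 in EV and 1.01, 1.26 and 1.13 in Pu.1 KD, a rise of 2.65-fold (adjusted p 0.00565). No Pu.1 KD array was as low as the highest EV array. Epor, the erythropoietin receptor (0.87), Il4ra (0.81) and Il18r1 (0.95) also rose. The 5 rises became 2 when either EV replicate 1 or 2 was left out, 3, 0 and 2 when Pu.1 KD replicate 1, 2 or 3 was, and 3 when Gata2 KD replicate 2 was, while at least 2 of the falls were left each time. Csf1r, the receptor for M-CSF and a known PU.1 target, was not called, with a change of 0.25 and overlapping groups (adjusted p 0.553). The subunits of the IL-3 receptor, on which the line depends, were not called either (Il3ra -0.04, Csf2rb 0.35).

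ITAMs are short tyrosine motifs that recruit kinases. The group of Fc receptors, ITAM adaptors and related receptors, some of them inhibitory, held some of the largest falls. Of 25 tested, 13 were called lower and 0 higher, with a median change of -0.76. Fcgr3, a low-affinity receptor for IgG, read 1.70, 1.57 and 1.71 in EV and -1.15, -0.97 and -1.06 in Pu.1 KD (6.58-fold lower, adjusted p 0.000858). Tyrobp, the ITAM adaptor also known as DAP12, read 4.98, 5.01 and 5.36 in EV and 2.57, 2.67 and 2.66 in Pu.1 KD (5.59-fold lower). That the arrays of these genes do not overlap was a condition of their choice among the largest falls. The inhibitory receptor Fcgr2b fell by 2.09, and the DAP12 partners Trem3 and Clec5a fell by 2.41 and 1.98. The paired immunoglobulin-like receptors Lilra6 and Pirb fell 7.82-fold and 6.27-fold, but these receptors are near copies of one another and their probes may share signal. Pira2, of the same family, was well above background on 2 of 3 EV arrays and on 0 of 3 Pu.1 KD arrays, so it passed the filter through the other groups. In the main values its fall is a bound of at least 2.4-fold, but this did not hold under other background corrections. The change was -0.26 after normexp, and the call was lost under 7 of 18 alternatives. Fcer1g, the other main ITAM adaptor, was not called (-0.07, adjusted p 0.813). The count of falls in the group was 8 without EV replicate 2 and 7 without Pu.1 KD replicate 2.

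The kinases and adaptors inside the cell that serve these receptors followed, with 14 of 38 called lower, 2 higher and a median of -0.36. Lyn, a Src-family kinase, fell 2.26-fold (adjusted p 0.0142). Pik3r5, a regulatory subunit of PI 3-kinase gamma, fell 2.56-fold on its brightest probe, with a median of -0.76 over its probes. The phosphatase Ptpn6 fell by 0.62, and the leukotriene genes Alox5 and Alox5ap by 0.71 and 0.68. Dok1 and Dok2, adaptors that restrain signaling, were the pair that rose, by 0.73 and 0.57. Of the 14 falls, 6 and 2 were left after EV replicate 1 or 2 was dropped, 1, 1 and 4 after Pu.1 KD replicate 1, 2 or 3, and 8 and 9 after Gata2 KD replicate 1 or 2.

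The granule proteins of neutrophils gave the highest share of calls. Of 27 proteins made late in neutrophil development (secondary granule and cytosolic proteins), 19 were called lower, or 70.4%, and 0 higher, with a median of -0.94 (-0.05 over all genes). S100a9, a subunit of calprotectin, read 5.61, 5.57 and 5.75 in EV and 3.18, 3.65 and 3.23 in Pu.1 KD (4.89-fold lower, adjusted p 0.00313). Its partner S100a8 read 2.56, 2.53 and 2.39 in EV and 0.22, 0.92 and 0.93 in Pu.1 KD (3.49-fold lower). Anxa3, an annexin of neutrophil granules, read 1.26, 1.43 and 1.40 in EV and -1.26, -0.79 and -1.14 in Pu.1 KD (5.38-fold lower). No Pu.1 KD array reached the lowest EV array in any of the 3. Other falls were of Ngp (3.2-fold), the collagenase Mmp8 (-1.51), the lysozymes Lyz2 and Lyz1 (-1.37 and -1.30, near copies), the cathelicidin Camp (-1.27), lactoferrin Ltf (-0.94) and lipocalin Lcn2 (-0.92). Stfa2l1 and Stfa3, stefins that inhibit cysteine proteases, fell 5.52-fold and 3.26-fold, and they too belong to a cluster of close copies. The group still had 11 and 9 falls when EV replicate 1 or 2 was dropped, and 10, 7 and 11 when Pu.1 KD replicate 1, 2 or 3 was.

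The primary granule proteins, which are made earlier, moved unevenly. Of 12 genes tested in this group, 4 were called lower and 0 higher, with a median of -0.62. The group also held genes that do not encode granule proteins, among them Ms4a3 (-3.07), 1 of the 4 called. Mpo, the myeloperoxidase, read 5.80, 5.82 and 6.06 in EV and 2.97, 3.32 and 2.95 in Pu.1 KD (7.02-fold lower, adjusted p 0.00179). Prtn3, proteinase 3, read 0.71, 0.77 and 0.40 in EV and -0.87, -0.76 and -0.89 in Pu.1 KD (2.76-fold lower). The arrays of both genes lay apart, for Mpo by the rule of choice. Elane, the neutrophil elastase that lies beside Prtn3 in the genome, changed by -0.72 (adjusted p 0.058) and Ctsg, cathepsin G, by -0.52 (adjusted p 0.0784), so neither passed. Under the alternatives the count of falls ran from 2, without Pu.1 KD replicate 2 or in the 6 arrays alone, to 8, after normexp background correction. In the NADPH oxidase, which makes superoxide for bacterial killing, 3 of 7 subunits and partners were called lower. The cytosolic subunit Ncf1 read 0.99, 1.50 and 0.82 in EV and -1.05, -1.06 and -1.41 in Pu.1 KD (4.84-fold lower). The membrane subunit Cyba fell by 0.49, and the catalytic subunit Cybb was not called (0.01, adjusted p 0.986). Leaving out any 1 of the 9 arrays left 1 of the 3 oxidase calls.

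Monocyte and macrophage genes moved less as a group than those of neutrophils, with 6 of 29 called lower, 1 higher and a median of -0.23. Besides Ms4a6b and Ms4a6c, Lst1 fell 4.16-fold, the chemokine receptor Ccr2 fell 2.24-fold, Adgre1, which encodes the F4/80 antigen, fell 1.99-fold and Itgam, the CD11b integrin chain, fell 1.74-fold. Adgre1 read 0.98, 1.13 and 1.12 in EV and 0.10, 0.02 and 0.13 in Pu.1 KD. The complement genes C1qa, C1qb and C1qc, expressed by mature macrophages, were not called (-0.04, 0.40 and -0.21). Only 2 of these falls were left without EV replicate 1, EV replicate 2 or Pu.1 KD replicate 1 or 2, and 3 without Pu.1 KD replicate 3 or Gata2 KD replicate 2. In MHC class II, which presents peptides to helper T cells, 5 of 10 genes were called lower and 0 higher, with a median of -0.85. H2-Ab1 read -0.05, -0.12 and -0.01 in EV and -1.26, -1.59 and -1.27 in Pu.1 KD (2.49-fold lower, adjusted p 0.00385). H2-Aa and the invariant chain Cd74 fell 2.53-fold and 2.27-fold, and Ciita, the master regulator of these genes, was not called (-0.38). For class II, 2 and 1 calls were left when EV replicate 1 or 2 was removed, and 3, 1 and 2 when Pu.1 KD replicate 1, 2 or 3 was.

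Chemokines, adhesion molecules and innate sensors gave mixed calls. Of 32 chemokines and chemoattractant receptors, 6 were called lower and 4 higher. Ccl9, a chemokine of myeloid cells, read 5.47, 5.54 and 5.47 in EV and 3.42, 3.48 and 3.82 in Pu.1 KD (3.78-fold lower, adjusted p 0.0031). Ccl6 fell 2.35-fold and C3ar1, the receptor for complement C3a, 2.76-fold, while Ccl17 rose 2.25-fold. Cxcl10, counted among the 4, was well above background on 0 of 3 EV arrays and on 1 of 3 Pu.1 KD arrays. It passed the filter only through the Gata2 KD arrays and lost its call under 10 of 18 alternatives, so no fold is given. Of 35 integrins, selectins and other adhesion molecules 7 were called lower and 0 higher. The tetraspanin Cd151 fell 3.55-fold (adjusted p 0.0137). Of 33 Toll-like receptor and inflammasome genes 5 were called lower and 1 higher. Nlrc4, a sensor of bacterial flagellin, was well above background on 3 of 3 EV arrays and 0 of 3 Pu.1 KD arrays, so it passed the filter through the other groups. In the main values its fall was at least 2.65-fold, but the change was -0.17 after normexp. The call was lost under 9 of 19 alternatives. Casp4, the caspase that senses lipopolysaccharide in the cytosol, read 2.52, 2.74 and 2.84 in EV and 4.27, 4.40 and 4.25 in Pu.1 KD (3.04-fold higher, adjusted p 0.00313). Of 51 lysosomal genes 7 were called lower and 0 higher, with a median of -0.06, led by the cathepsin Ctsl (2.71-fold), which lost its call under 5 of 20 alternatives. Of 19 C-type lectins and scavenger receptors, 2 were called lower, among them Stab1 (-1.79, with a median over its probes of -0.86), and 1 higher, the receptor tyrosine kinase Axl (1.01). The falls among chemokines, adhesion molecules, sensors and lysosomal genes numbered 3, 3, 1 and 3 without EV replicate 1 and 3, 3, 1 and 0 without EV replicate 2. Dropping Pu.1 KD replicate 1 gave 3, 1, 0 and 0, dropping replicate 2 gave 2, 0, 0 and 0, and dropping replicate 3 gave 4, 3, 2 and 3. Leaving out a Gata2 KD array left 4 or more of the chemokine falls, 3 or more of the adhesion and sensor falls and 5 of the lysosomal falls.

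**Figure D3:**
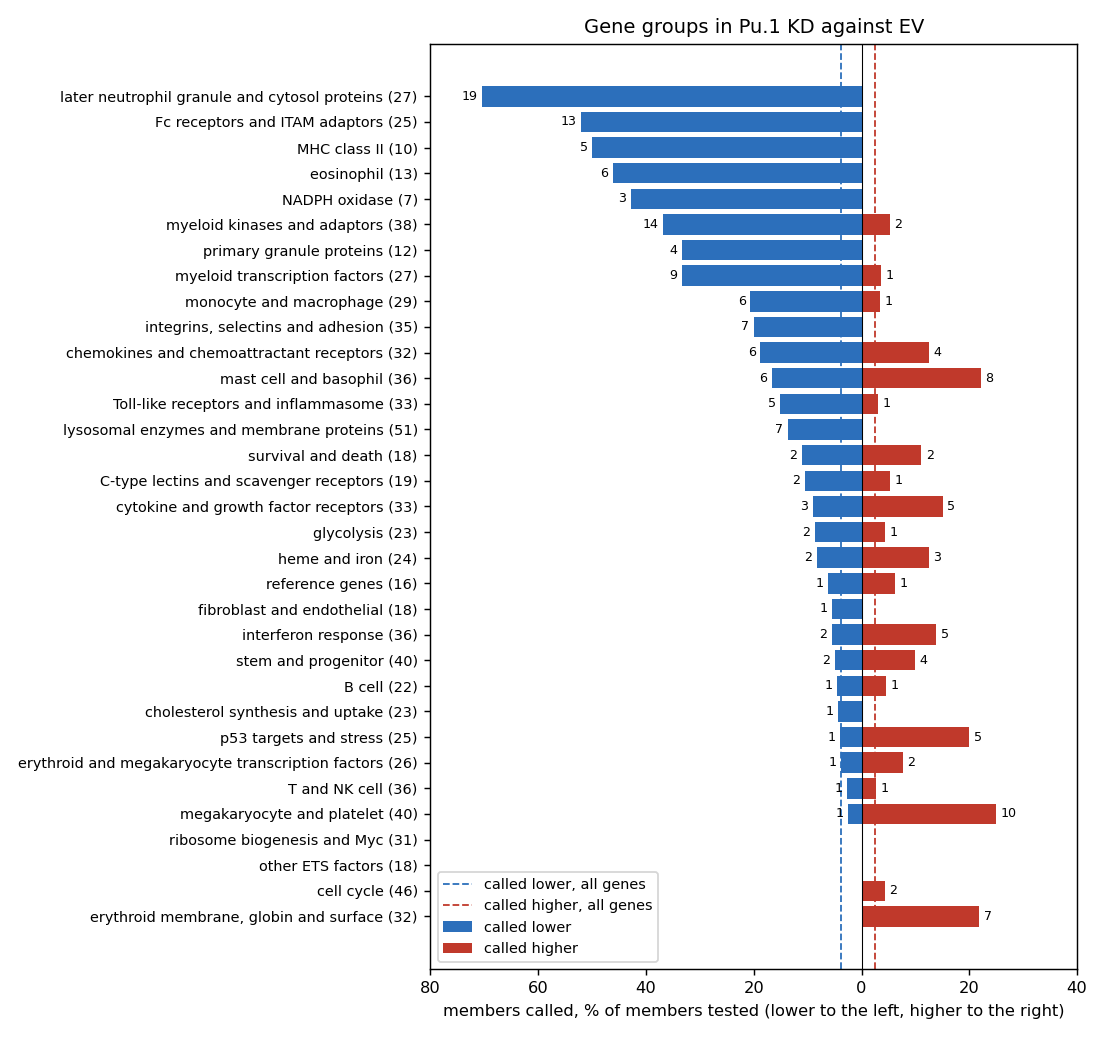
Share of the tested members of each gene group (number tested in brackets) that were called lower (blue, to the left) or higher (red, to the right) in Pu.1 KD, in percent, with the number called beside each bar. The dashed lines give the share over all 15808 genes, 3.85% lower and 2.59% higher, and the later neutrophil granule group has the longest bar, at 70.4%.

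The lineages outside the neutrophil and macrophage branches divided. Of 13 eosinophil genes, 6 were called lower and 0 higher, with a median of -1.23, which was -0.19 after normexp correction, -0.17 in the deposited log2 values and -0.86 in the 6 arrays alone (the cause was not tested). Prg2, the major basic protein of eosinophil granules, read 1.57, 0.97 and 1.50 in EV and -1.01, -0.91 and -1.38 in Pu.1 KD (5.45-fold lower, adjusted p 0.00572). Epx, the eosinophil peroxidase, read -0.35, -0.73 and -0.12 in EV and -2.34, -2.60 and -2.33 in Pu.1 KD (4.06-fold lower). Siglecf, a lectin of the eosinophil surface, read -1.51, -1.39 and -1.54 in EV and -3.93, -3.85 and -3.89 in Pu.1 KD (5.32-fold lower, adjusted p 0.00192). All 3 genes separated the groups by more than the range within either. Il5ra, the receptor chain for IL-5, was not called (-0.19), nor was the chemokine receptor Ccr3 (0.74, adjusted p 0.25). The median over members was -0.71, -1.16 and -0.49 on the 3 slides. Dropping EV replicate 2 left 3 of the 6 falls, and dropping Pu.1 KD replicate 1, 2 or 3 left 3, 1 and 3.

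Mast cell and basophil genes went in both directions, with 6 of 36 called lower, 8 higher and a median of -0.02. Tph1, the enzyme of serotonin synthesis, read -0.58, -0.78 and -0.42 in EV and 1.13, 1.10 and 1.00 in Pu.1 KD (3.18-fold higher, adjusted p 0.00597). Mcpt2, a mast cell protease, read -2.68, -2.58 and -2.97 in EV and -1.13, -0.99 and -1.27 in Pu.1 KD (3.06-fold higher). Cma1, the chymase, rose 2.79-fold. Hs3st1, a heparan sulfate sulfotransferase, was called higher, but it was well above background on 2 of 3 EV arrays and lost its call under 8 of 19 alternatives, so no fold is given. Calca, which encodes calcitonin and its related peptide, rose 2.86-fold on its brightest probe, with a median of 0.98 over its probes. On the other side, Hdc, which makes histamine, fell by 1.02, the carboxypeptidase Cpa3 by 0.72, Prss34, a protease of basophils, by 0.82, Cd200r3 by 0.77, the IgE receptor chain Fcer1a by 0.71 and Il6 by 1.09. Ms4a2, the IgE receptor beta chain, changed by -0.76 (adjusted p 0.052) and did not pass. There were 5 rises and 1 fall without EV replicate 1, and 4 and 1 when EV replicate 2 was dropped. Dropping Pu.1 KD replicate 1, 2 or 3 left 4, 1 and 5 rises and 0, 0 and 2 falls.

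Megakaryocyte and platelet genes rose in part, with 10 of 40 called higher, 1 lower and a median of 0.27. Pf4, platelet factor 4, read 4.84, 5.21 and 5.30 in EV and 6.83, 6.80 and 6.56 in Pu.1 KD (3.06-fold higher, adjusted p 0.00466). Sparc, a matrix protein stored in platelets, read 2.01, 2.26 and 2.43 in EV and 3.98, 3.86 and 3.53 in Pu.1 KD (2.93-fold higher). The rises also included Slamf1 (1.32, with a median of 0.68 over its probes), Clec1b, a receptor of platelets (1.10), Nrgn (1.03), Treml1 (0.86), the glycoprotein Gp5 (0.72) and the von Willebrand factor Vwf (0.71). Gp1ba, the platelet glycoprotein Ib alpha chain, went the other way and read 1.79, 1.81 and 1.93 in EV and 0.45, 0.38 and 0.68 in Pu.1 KD (2.53-fold lower, adjusted p 0.00528). Of its partners in the complex, Gp5 rose, as given above, while Gp1bb and Gp9 were not called (0.55 and 0.50, adjusted p 0.0815 and 0.0763). Itga2b, which encodes CD41, was not called either (0.88, adjusted p 0.167). With EV replicate 1 or 2 left out there were 5 and 4 rises, and with Pu.1 KD replicate 1, 2 or 3 left out there were 5, 3 and 5.

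The erythroid group, of membrane, globin, surface and some other red cell genes, gave 7 of 32 called higher and 0 lower, with a median of 0.22. Aqp1, the water channel, read 0.13, 0.85 and -0.17 in EV and 1.69, 1.80 and 1.80 in Pu.1 KD (2.81-fold higher, adjusted p 0.0133). Car2, a carbonic anhydrase, read 2.31, 2.85 and 2.47 in EV and 3.66, 3.89 and 3.47 in Pu.1 KD (2.19-fold higher). Epor, the erythropoietin receptor, read 0.59, 0.47 and 0.62 in EV and 1.34, 1.31 and 1.64 in Pu.1 KD (1.83-fold higher, adjusted p 0.0109). In these genes, as in Kel by the rule of choice, no Pu.1 KD array overlapped with EV. Tfr2, a sensor of transferrin, and the alpha globin Hba-a1 rose 1.56-fold and 1.68-fold, the latter a gene with a near-identical copy. Among genes of mature red cells, the anion exchanger Slc4a1 (-0.08) and Alas2, the erythroid enzyme of heme synthesis (-0.14), were not called. Of the 7 rises, 2 and 3 were left when EV replicate 1 or 2 was removed, and 3, 2 and 2 when Pu.1 KD replicate 1, 2 or 3 was.

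Of 26 erythroid and megakaryocyte transcription factors, 2 were called higher and 1 lower. Klf1, the erythroid Krüppel-like factor, rose 1.78-fold (adjusted p 0.0163), with no overlap between the groups. Runx1, a factor of blood stem cells and megakaryocytes, read 0.80, 1.20 and 1.29 in EV and 0.19, 0.13 and -0.15 in Pu.1 KD (2.06-fold lower, adjusted p 0.00557). Tal1 and Lmo2 were not called (0.34 and 0.51). In heme and iron metabolism, 3 of 24 were called higher and 2 lower. The transporter Abcg2 rose 2.54-fold, and Alas1, the housekeeping enzyme of heme synthesis, and the ferritin heavy chain Fth1 fell 2.06-fold and 2.23-fold. Of 40 stem and progenitor genes, 4 were called higher and 2 lower, with a median of 0.04. Cd34, a surface glycoprotein of progenitors, read 2.74, 3.25 and 3.15 in EV and 2.18, 2.19 and 2.01 in Pu.1 KD (1.89-fold lower, adjusted p 0.00901). Kit and Cd34, both used to mark progenitors, moved in opposite directions. Of 34 Hox genes tested, a family counted after the values were seen, 0 were called. Without Pu.1 KD replicate 2, 0 of the transcription factor calls, 1 of the heme and iron calls and 1 of the stem and progenitor calls were left.

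**Figure D4:**
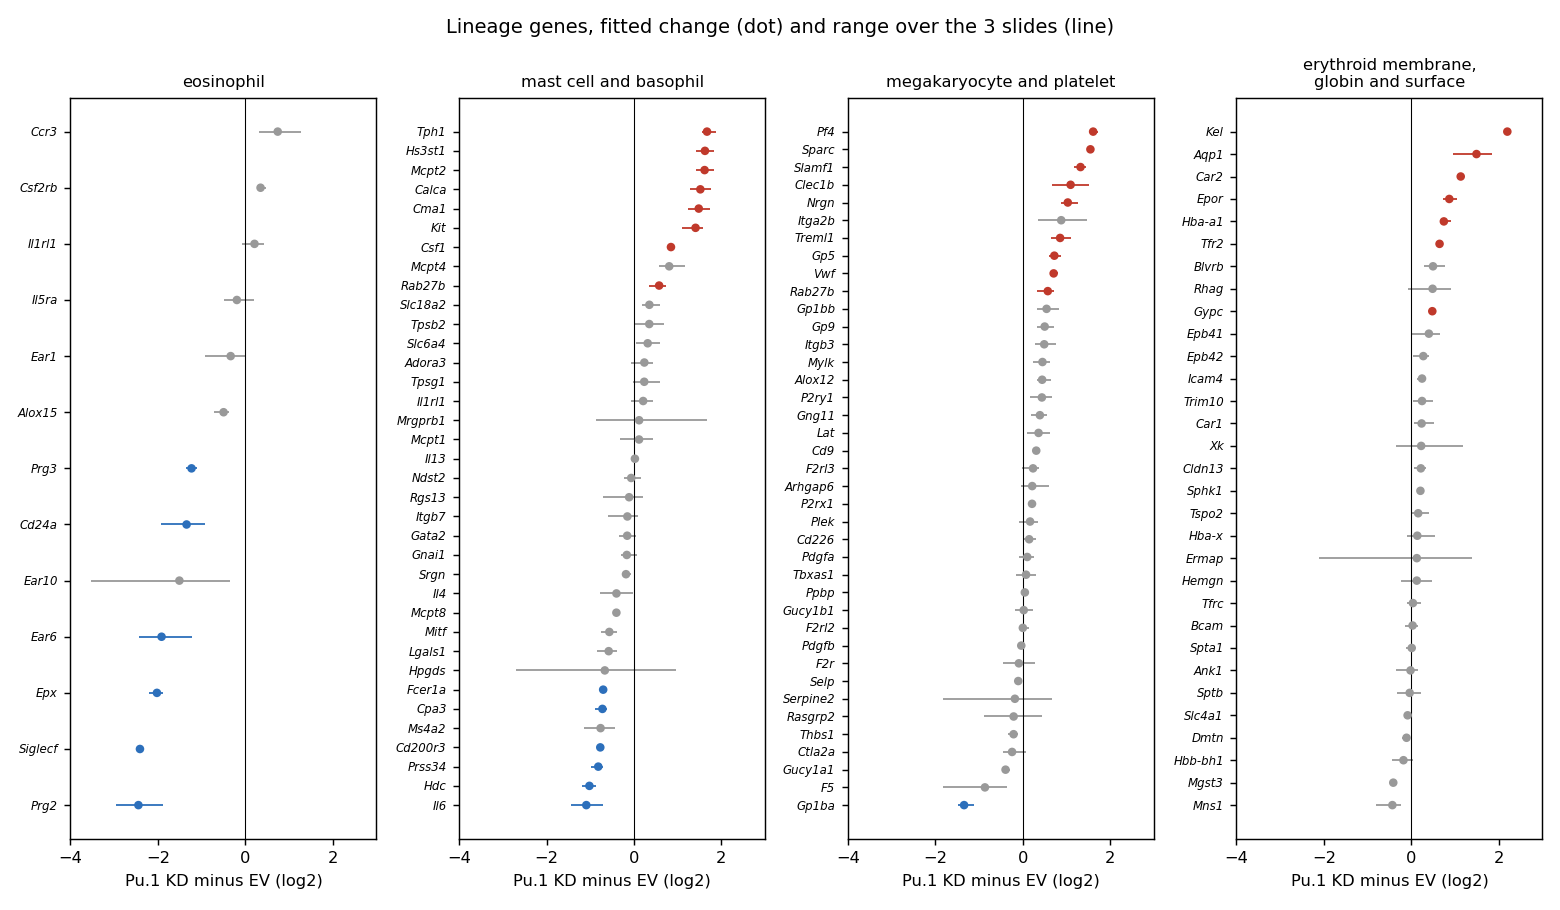
Change of the tested members of 4 lineage gene groups that are named here (log2, Pu.1 KD minus EV, x axis). Dots are the fitted change, lines run from the lowest to the highest difference among the 3 slides, and color gives the call (blue lower, red higher, gray not called), with 6 of 13 eosinophil genes blue and Pf4 (1.61) the highest of the megakaryocyte genes drawn.

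Short lists of defining markers were also summed as linear signal, in which 1 is the 75th percentile of the array. The 7 neutrophil markers summed to between 112 and 128 on the EV arrays and between 19.3 and 25.8 on the Pu.1 KD arrays, with 6 of 7 called lower. Most of this sum comes from Mpo and S100a9. The 3 eosinophil markers summed to between 2.8 and 4.18 in EV and between 0.719 and 0.862 in Pu.1 KD, with 3 of 3 called lower, and Prg2 is the largest part. The 6 megakaryocyte markers went from between 57.3 and 75.1 to between 143 and 168, with 2 of 6 called higher (Pf4 and Vwf), and the sum rests largely on Pf4. The 5 erythroid markers tested went from between 9.23 and 10.1 to between 15.2 and 17.5, with 3 of 5 called higher. This sum rests largely on Hba-a1, which lost its call under 12 of 20 alternatives. Mast cell markers summed to between 88.6 and 105 in EV and between 56.9 and 65.8 in Pu.1 KD, with 2 of 6 called lower (Cpa3 and Fcer1a) and 1 higher (Cma1). In these lists no array of one group overlapped with the other, nor for the 4 macrophage markers tested, which summed to between 3.39 and 3.62 in EV and between 2.45 and 2.9 in Pu.1 KD. The ranges overlapped for the markers of T cells, B cells, fibroblasts and endothelial cells, and of these 16 genes only Cd79b, the B cell receptor subunit, was called (-1.66, adjusted p 0.00567). Whether cells of other types contribute to any of these signals was not tested.

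Calls among genes of growth and of general metabolism are read beside the shares over all genes, 3.85% lower and 2.59% higher. Of 46 cell cycle genes 0 were called lower and 2 higher (4.35%), the cyclin Ccnd2 (0.79) and the inhibitor Cdkn2c (0.51), and of 31 genes of ribosome biogenesis, Myc included, 0 were called. Glycolysis had 2 of 23 called lower (8.7%) and 1 higher (4.35%), and cholesterol synthesis 1 of 23 lower (4.35%). Of the cholesterol genes 20 fell in value and 3 rose, with a median of -0.24, and 6 were called lower after normexp correction. Of 16 reference genes the lysosomal enzyme Gusb was called lower (-0.65) and B2m, a subunit of MHC class I, higher (0.72). Of 25 genes of the p53 and stress responses, 5 were called higher and 1 lower, with a median of 0.28. Phlda3, a p53 target, read 3.55, 3.71 and 3.65 in EV and 4.56, 4.81 and 4.74 in Pu.1 KD (2.09-fold higher, adjusted p 0.00882). Bbc3, a death-promoting member of the Bcl-2 family, rose 1.83-fold and Trp53inp1 2.06-fold, while the p53 targets Cdkn1a (0.28) and Mdm2 (0.54, adjusted p 0.0513) were not called. Among 18 genes of survival and death, Fas, a death receptor, rose 2.16-fold and Bcl2l11, which encodes the death-promoting protein Bim, rose 2.55-fold on its brightest probe, with a median of 0.80 over its probes. Bcl2a1b, a survival gene with several close copies, fell 3.66-fold, and Bak1 fell 1.69-fold. Removal of EV replicate 1 or 2 left 3 and 1 of the p53 and stress rises, of Pu.1 KD replicate 1, 2 or 3 left 2, 0 and 2, and of any Gata2 KD array left 3. Of 36 interferon response genes 5 were called higher and 2 lower, and the 5 include Cxcl10, which passed the filter only through the Gata2 KD arrays. Of 36 T and NK cell genes 1 was called each way (Cd7 higher, Thy1 lower), and of 22 B cell genes 1 each way. The interferon rises numbered 9 without EV replicate 3, and between 0 and 3 without any other single array. Without Pu.1 KD replicate 2, 0 calls were left among the cell cycle, cholesterol, glycolysis, reference, T and NK cell and B cell genes, and 1 among those of survival and death.

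**Figure D5:**
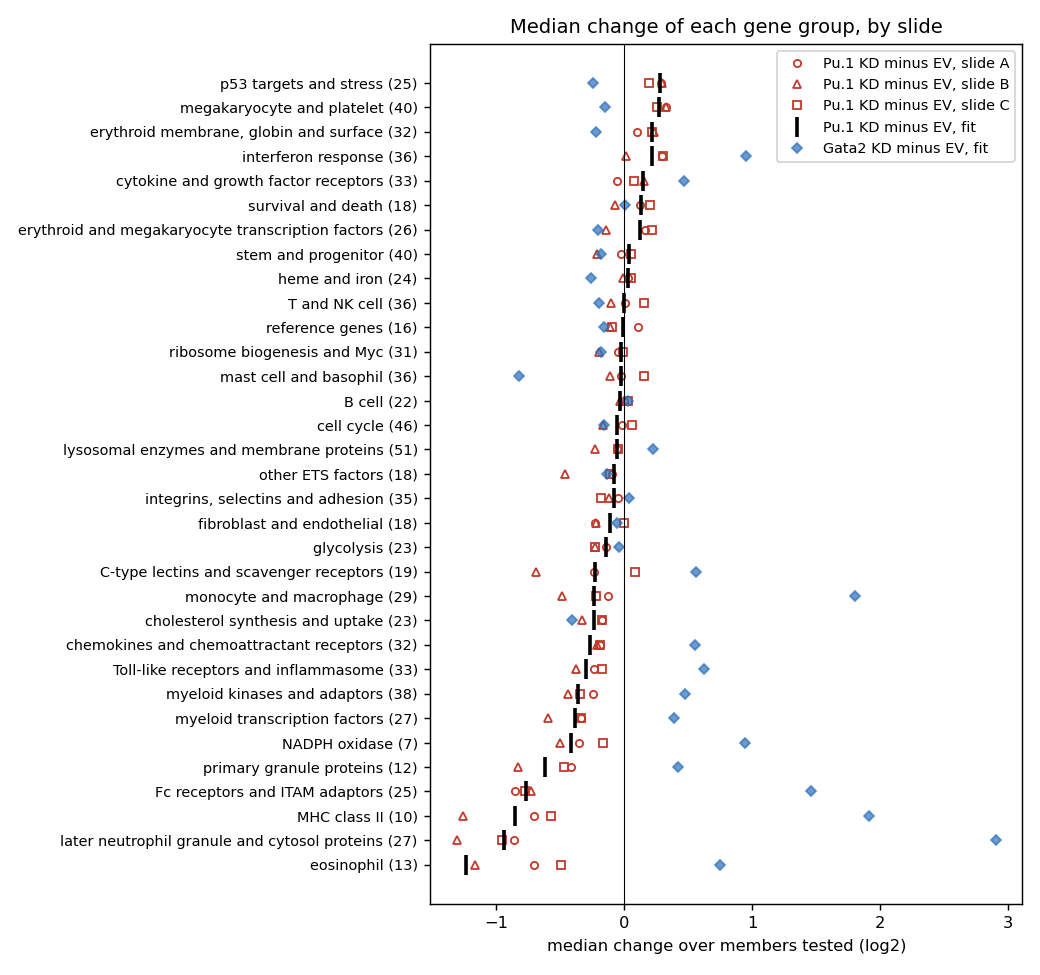
Median change over the tested members of each gene group (log2, x axis; number tested in brackets) between Pu.1 KD and EV within each slide (open red symbols) and in the fit (black bars), with the fitted median for Gata2 KD against EV beside it (blue diamonds). The 2 comparisons share the EV arrays. The later neutrophil granule median is -0.94 in Pu.1 KD and 2.90 in Gata2 KD.

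The Pu.1 KD arrays were also set directly against the Gata2 KD arrays, a contrast in which the EV arrays serve only for the slide term and the spread. Of 15808 genes, 8.58% were called lower and 8.98% higher in Pu.1 KD than in Gata2 KD. Spi1 itself differed by -3.11 (log2, Pu.1 KD minus Gata2 KD, adjusted p 4.45e-05), as its level in Gata2 KD was above that of EV (change 1.37, adjusted p 0.00169). Of the 27 later neutrophil granule genes, 25 were lower in Pu.1 KD and 0 higher, of the 29 monocyte and macrophage genes 19 and 0, and of the 10 class II genes 9 and 0. On the other side, 20 of 36 mast cell and basophil genes were higher in Pu.1 KD than in Gata2 KD and 4 lower. Of 40 megakaryocyte genes 17 were higher and 6 lower, and of the 32 genes of the erythroid group 13 were higher and 1 lower. These counts hold changes of both knockdowns. Against EV the medians in Pu.1 KD and Gata2 KD were -0.94 and 2.90 (later neutrophil), -0.23 and 1.80 (monocyte and macrophage) and -0.85 and 1.91 (class II). They were -0.02 and -0.82 (mast cell and basophil), 0.27 and -0.15 (megakaryocyte) and 0.22 and -0.22 (erythroid membrane, globin and surface). Mpo differed by -5.87 (adjusted p 1.2e-05), S100a9 by -5.02 and Vat1l by 5.87. Ahrr was a member of the largest rises that did not differ detectably between the knockdowns (0.06, adjusted p 0.868), with changes of 1.86 in Pu.1 KD and 1.80 in Gata2 KD against the same EV arrays. For Fos the values against EV were -1.56 in Pu.1 KD and -0.82 in Gata2 KD, and the difference between the knockdowns did not pass (-0.73, adjusted p 0.145). Kit was higher in Pu.1 KD than in Gata2 KD by 0.68 (adjusted p 0.0204), and it was also higher in Gata2 KD than in EV (0.73, adjusted p 0.0248).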

How the data were processed

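Gene expression was measured on 9 single-color Agilent 4x44K whole mouse genome arrays, 1 for each sample. The deposited scanner files hold the spot intensity that the authors obtained with Agilent Feature Extraction 10.1.1.1, which was background-subtracted and detrended within each array and not normalized between arrays. The deposited table of log2 values, for which the study's methods name LIMMA but the exact normalization is not given in the sources used here, served as an alternative and not as the main values.

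The processed intensity was expressed as log2 and the 75th percentile of each array was subtracted. Control probes and outlier-flagged spots were left out, and tested probes had to exceed background clearly on 3 or more arrays and to have 2 or more values in every group. Of 41174 probes 36585 were tested, and 23374 of the 41174 carried a symbol matched through their accession to the RefSeq gene table (GRCm38.p6 for promoter windows). The brightest tested probe stood for each of the 15808 genes. All 9 arrays were fitted with group and slide as terms (limma 3.58.1 in R 4.3.3, two-sided moderated tests, Benjamini-Hochberg over all probes), and a call is an adjusted p under 0.05. The Gata2 KD arrays entered so that all groups share 1 estimate of the spread. The scripts were tested on simulated data.

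The comparison, the 33 gene groups and the markers were chosen with earlier results of these data known. The genes named are Spi1, Gata2 and Gata1, the 12 largest falls and the 12 largest rises among called genes well above background on all 6 arrays with groups apart, up to 6 called members of each gene group by size of change and, for groups with no call, the 2 brightest members. Promoters were those of the first 4 falls and first 2 rises in the table. Further members of the groups, among them most of those not called, were chosen after their values were seen. Alternatives changed the slide or replicate term, the arrays, the background correction, the scaling, the filter, the outlier spots, the variance model, the source of the values and the probe for a gene. Number of arrays, 3 in a group, limits the precision. Some members of the gene groups are counted but not reported here by name.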

Additional observations from a re-analysis of the deposited data

How the results depend on the processing

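The number of probes called in Pu.1 KD against EV (999 lower and 842 higher) moved by more than 1.5 times under several alternatives, and the cause was not tested. It was 514 and 448 (962 in all) without the slide, 56 and 25 (81) in the EV and Pu.1 KD arrays alone, 318 and 253 (571) where a call also needed a 2-fold change, 1538 and 1403 (2941) after normexp correction, 1820 and 1529 (3349) with trended and robust variances and 1753 and 1867 (3620) in the deposited log2 values. With the replicate number of the titles as a block in place of the slide (replicate block) it was 132 and 94 (226). Deviations of arrays with the same number correlated between -0.552 and 0.652, so the numbers were not taken to pair the samples. Leaving out single arrays gave 78 to 844 probes lower, 54 to 1124 higher and 132 to 1968 in all, with the lowest without Pu.1 KD replicate 2 and the highest without EV replicate 3. Spi1 remained called under all 20 alternatives. Of 142 other named genes called, 29 were called under every alternative, and the 6 arrays alone lost the call of 106.

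Of 33 gene group medians, 10 took the other sign under at least 1 alternative, each of them between -0.11 and 0.13 as reported. Among the named genes refitted, 3 that were not called changed sign. Fli1 (-0.01) read 0.0132 after quantile normalization, 0.0368 after median scaling, 0.0427 in the deposited values and -0.1905 to 0.0939 with single arrays left out. The ribosome biogenesis genes Fbl (0.07) and Npm1 (0.01) read -0.5341 after normexp and -0.5150 in the deposited values, and -0.0557 after quantile normalization and -0.0393 to 0.0777 with single arrays left out, respectively. With 3 arrays in a group, of which 1 can decide most calls, a gene that was not called cannot be taken as unchanged.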
